A study of Saccharomyces cerevisiae with 6 samples.

Results

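The genes described here are the assembly factors of the small (40S) ribosomal subunit of Saccharomyces cerevisiae. They were chosen by name from a list of 53 genes, through the gene symbols of the annotation deposited with the chip. All 53 were measured, each by 1 probe set of its own, among 5725 genes with a named probe set. The symbol in the annotation matched for 52 of them, and NOP56 was found under its older symbol, SIK1, through its locus tag.

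The small subunit is built in the nucleolus, where RNA polymerase I makes a long precursor RNA that holds 18S rRNA together with the rRNAs of the large subunit. A large particle, the small subunit processome, forms on the 5′ part of this precursor around the U3 small nucleolar RNA, and folds, modifies and cuts it. Its proteins arrive in modules (UTP-A, UTP-B, UTP-C, the U3 particle and the Mpp10 complex), helicases and other enzymes then remodel it, and late factors travel with the particle towards the cytoplasm, where 18S rRNA is finished. In yeast the genes of these factors are known as a group that is regulated together, through other promoter elements than the genes of the ribosomal proteins.

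The effect of eEF1A overexpression was read on 6 Affymetrix Yeast 2.0 arrays, which carry short probes for S. cerevisiae and S. pombe. The 4 control arrays (replicates 1 to 4) were of cells with an empty multi-copy (2 micron) LEU2 plasmid, labelled as of normal size. The 2 eEF1A arrays (replicates 2 and 3) were of cells labelled as enlarged, with a plasmid of that kind carrying TEF1, a gene of translation elongation factor eEF1A, which the methods place under the strong GPD promoter. All cultures were grown at 30°C in medium without leucine, from an optical density of 0.1 to 0.7, and the methods describe cultures in biological triplicate where the labels give 4 and 2. The labels name no strain, but the mating-type markers of the groups were opposite. All 6 a-cell markers, such as the pheromone gene MFA2, were lower in the eEF1A group (5.56 to 7.99 on the log2 scale, against 10.82 to 12.84 in the controls), and all 4 alpha-cell markers, such as MF(ALPHA)1, were higher (11.13 to 13.19, against 3.78 to 7.68). Averaged over each marker list, the arrays read 11.72 to 11.79 in the controls and 6.48 to 6.75 in the eEF1A group for a-cell markers, and 5.97 to 6.13 against 12.10 to 12.38 for alpha-cell markers. The plasmid and this strain difference cannot be told apart in any result below.

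All values are log2 expression values, so a difference of -1 is a halving of the signal, and differences are always eEF1A minus control. The arrays correlated at 0.998 to 0.999 among the controls, at 0.996 between the eEF1A replicates and at 0.975 to 0.977 between the groups. The TEF1 and TEF2 genes share a probe set close to the top of the scale, and it did not separate the groups (14.48 to 14.51 in the controls, 14.51 and 14.49 on eEF1A replicates 2 and 3). On eEF1A replicate 2 the 6 hybridisation control probe sets of the first design averaged 9.84, against 11.33 to 11.39 on the controls and 11.60 on eEF1A replicate 3, while 6 others against spiked RNAs of the same kind averaged 11.76 there, against 11.75 to 11.83 on the controls and 12.09 on eEF1A replicate 3, above every control. For this reason the eEF1A replicates are also read one by one. The whole cultures were lysed, so a change in the mixture of cells and less RNA per cell cannot be told apart.

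The assembly factors were lower in eEF1A cells almost throughout. Of the 53, 40 fell and 0 rose in limma's moderated test at an adjusted p under 0.05 (Benjamini-Hochberg over all 5725 genes), where 15.5% of all genes fell and 27.5% rose. At an unadjusted p under 0.05, 43 were lower and 0 higher. The share of all genes under that threshold is not given, here or for the lists below. With limma's intensity trend option it was again 43 and 0, where 933 of all 5725 genes (16.3%) were lower and 1615 higher. The falls were moderate: the median difference over the 53 was -0.27, or 82.7% of the control signal, beside a median of 0.04 over all genes. A difference below -0.5 was seen for 8 members, one from -0.25 to -0.5 for 20, and one above -0.25 for 25, while 3.11% of all genes lay below -0.5. In 52 members the difference was negative, and the one exception was RRP5. At the stricter threshold of the methods, a B-statistic above 1.5 (a log odds of change), 9 were lower and 0 higher, where 2.52% of all genes were lower and 6.1% higher. These 9 were LCP5, RCL1, UTP6, RRP7, UTP11, DBP8, IMP4, UTP15 and SOF1.

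**Figure D1:**
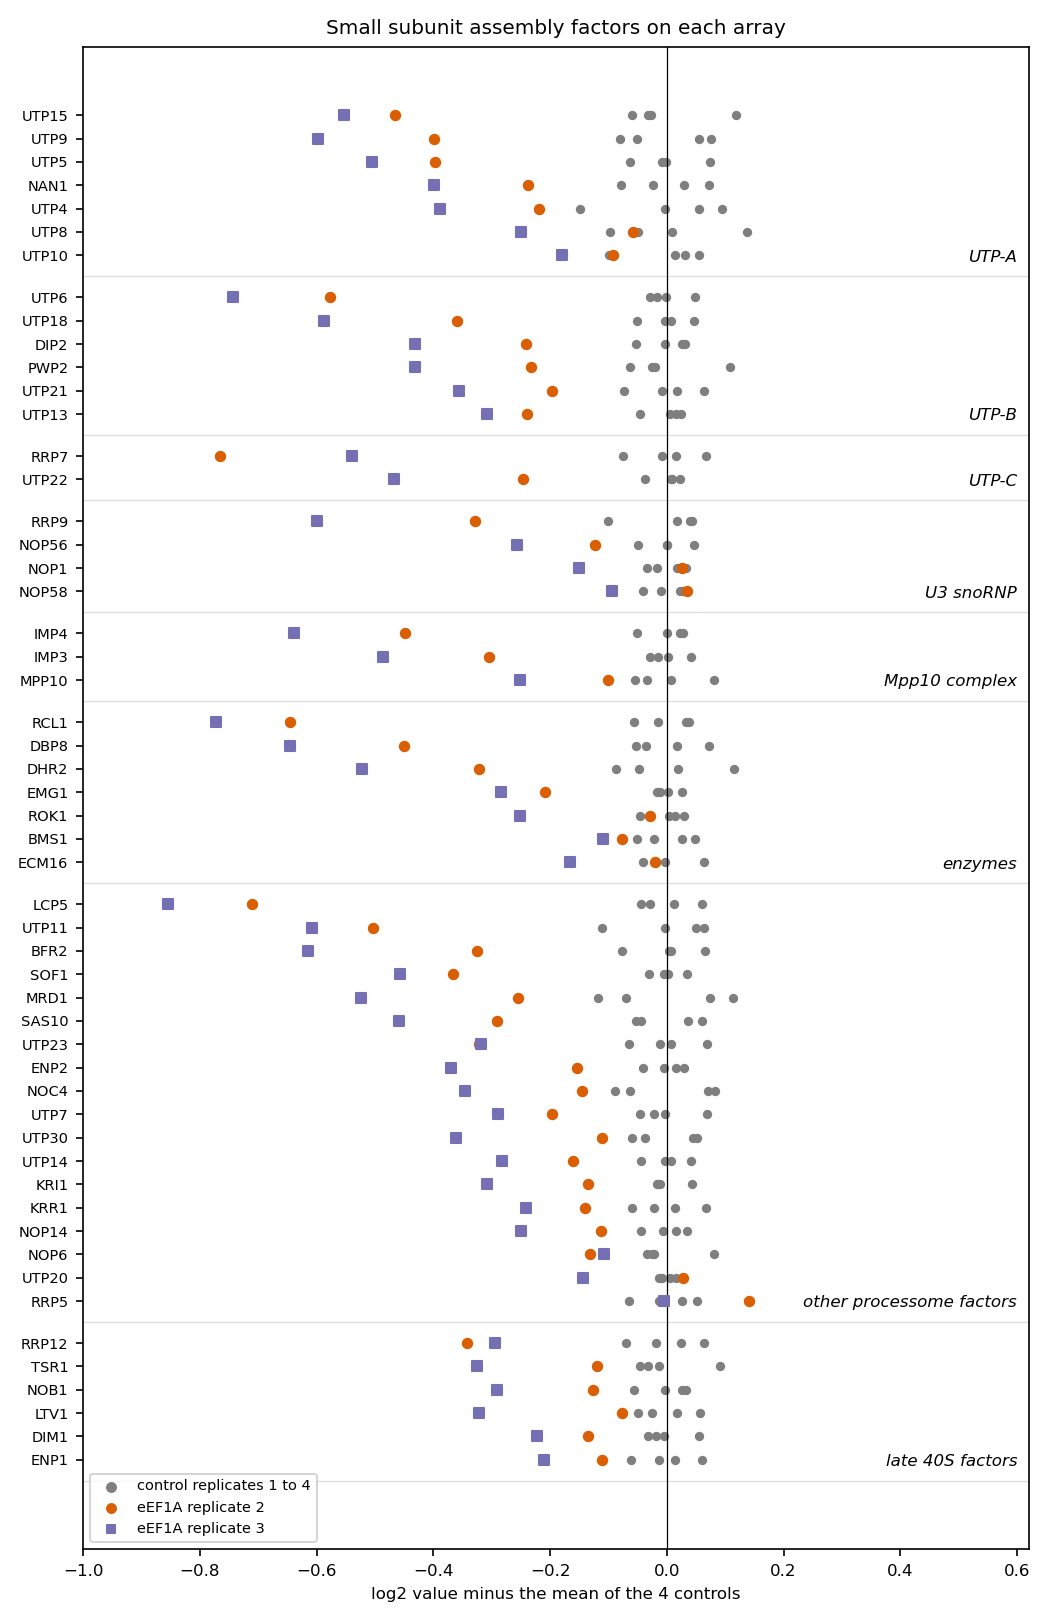
Log2 value of each assembly factor on each array minus the mean of the 4 controls (horizontal axis), for the 53 genes by role (rows). Grey points are control arrays, orange circles eEF1A replicate 2 and purple squares eEF1A replicate 3. On eEF1A replicate 3 the values of 52 genes are below all 4 controls (40.1% of all genes), and on eEF1A replicate 2 those of 45 (23.2% of all genes).

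UTP-A, the module that binds the precursor first, has 7 members here, of which 5 fell and 2 did not pass (median -0.32). UTP15, a WD-repeat subunit, fell most. Its probe set targets the coding sequence at chr13:454014-455555 on the plus strand, in the October 2003 genome version of the chip's annotation, which is used for all positions given. It read 11.05, 11.04, 11.19 and 11.02 on control replicates 1 to 4, against 10.61 and 10.52 on eEF1A replicates 2 and 3. Both eEF1A values were below every control, and the eEF1A group stood at 70.2% of the control signal, a difference of -0.51 ± 0.06 (SE) with an adjusted p of 0.000557 from limma. UTP9 (chr8:491927-493654, plus strand) was next, with 11.11, 11.24, 11.22 and 11.08 in the controls and 10.76 and 10.57 in eEF1A cells. The difference of -0.50 ± 0.07 (SE) for UTP9 also passed (adjusted p = 0.00126 from limma). UTP5, NAN1 and UTP4 fell by less (-0.45, -0.32 and -0.30). UTP10, the largest protein of the module, moved least of the 7, with 10.85, 10.86, 10.89 and 10.73 in the controls and 10.74 and 10.65 in eEF1A cells. Its value on eEF1A replicate 2 lay within the control range, and its difference of -0.14 ± 0.06 (SE) did not pass (95% confidence interval -0.28 to 0.00, adjusted p = 0.107 from limma). UTP8 (-0.15) did not pass either.

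UTP-B and UTP-C fell in full, with 6 of 6 and 2 of 2 members (medians -0.33 and -0.50), but not under every alternative. With the replicate number as a block in the fit, 3 of 6 and 1 of 2 fell. With only the arrays numbered 2 and 3 it was 5 of 6 and 2 of 2. UTP-B is a stable complex that joins after UTP-A, and UTP6 is one of its scaffold subunits (chr4:1357568-1358890, minus strand). UTP6 read 11.01, 11.04, 11.09 and 11.02 in the 4 controls and 10.46 and 10.30 on the eEF1A arrays. The gap between the groups was many times the spread of the controls, and UTP6 stood at 63.3% of control (difference -0.66 ± 0.06 (SE), adjusted p = 0.000116 from limma). UTP18 (chr10:310618-312402, minus strand), which recruits the helicase of the nuclear exosome, had values of 10.97, 10.96, 11.01 and 10.91 in control cells and 10.61 and 10.38 in eEF1A cells. Its groups did not overlap (difference -0.47 ± 0.07 (SE), adjusted p = 0.00122 from limma). The WD-repeat subunits DIP2, PWP2, UTP21 and UTP13 were between -0.34 and -0.27. In UTP-C, a module that also contains casein kinase 2, RRP7 (chr3:64675-65568, minus strand) read 10.9756, 11.0522, 10.9997 and 10.9093 in the controls and 10.2195 and 10.4450 in eEF1A cells. RRP7 differed from most members in being lower on eEF1A replicate 2 than on replicate 3, with both far below the controls (difference -0.65 ± 0.07 (SE), adjusted p = 0.000316 from limma). UTP22, its partner, was at -0.36.

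In the U3 particle 2 of the 4 proteins listed here fell (median -0.13). RRP9 (chr16:802353-804074, plus strand), the protein found only in the U3 particle, fell, as did NOP56 (-0.19), one of the core proteins that every box C/D small nucleolar RNA shares. NOP56 lost its call without eEF1A replicate 3 or without control replicate 1, 2 or 4, which left RRP9 alone. The other core proteins listed here, NOP1 and NOP58, did not pass, though NOP1 was lower after quantile normalisation again. RRP9 read 10.16, 10.13, 10.15 and 10.01 in control cells and 9.78 and 9.51 in eEF1A cells, with the eEF1A replicates further apart than the controls but both below them. At 72.5% of control it passed the test (difference -0.46 ± 0.08 (SE), adjusted p = 0.00285 from limma). NOP58 gave 13.24, 13.17, 13.21 and 13.24 on the controls and 13.25 and 13.12 on the eEF1A arrays, one above all controls and the other below them. Its difference was -0.03 (95% confidence interval -0.16 to 0.10, adjusted p = 0.699 from limma). NOP1, the RNA methyltransferase fibrillarin, differed by -0.06 (95% confidence interval -0.20 to 0.08). These probe sets of NOP1 and NOP58 have high signals (control means of 12.97 and 13.21), where an array responds less than in proportion, and the part of this in their small differences was not tested. The core proteins of the other class of small nucleolar particles, box H/ACA, which guide pseudouridine formation, did not pass in any of 4 cases (median -0.08, with 0 lower at an unadjusted p under 0.05 and 1 lower with limma's trend option). After median centring 2 of these 4 were lower (25.3% of all genes), and in 2 both eEF1A arrays were below all controls (21.5% of all genes). Whether RRP9 differed from the shared core proteins was not tested.

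In the Mpp10 complex, IMP3 and IMP4, which bring U3 to its pairing sites on the precursor, both fell and the scaffold MPP10 did not pass (median of the 3, -0.40). IMP4 (chr14:485604-486476, plus strand) read 11.22, 11.29, 11.30 and 11.27 in the controls and 10.82 and 10.63 in eEF1A cells. The groups were far apart (difference -0.54 ± 0.06 (SE), adjusted p = 0.000385 from limma), and IMP3 was at -0.40. MPP10 itself read 9.41, 9.37, 9.48 and 9.35 in control cells and 9.30 and 9.15 in eEF1A cells. Both eEF1A values were below the controls, eEF1A replicate 2 only narrowly, and the difference of -0.18 ± 0.06 (SE) missed the threshold (adjusted p = 0.0558 from limma).

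Of the 7 enzymes, 4 fell (median -0.25), and all 7 did after median centring. RCL1 (chr15:307938-309041, plus strand), a cyclase-like protein needed for cutting the precursor within the first internal spacer, had the second largest fall of all members. It read 10.58, 10.67, 10.62 and 10.68 in the 4 controls and 9.99 and 9.87 on the eEF1A arrays. That is 61.2% of the control signal, with no overlap between the groups (difference -0.71 ± 0.06 (SE), adjusted p = 6.91e-05 from limma). BMS1, the GTPase that binds Rcl1, did not pass (-0.09, 95% confidence interval -0.21 to 0.03). Among the RNA helicases, DBP8 (chr8:442180-443475, plus strand) read 10.38, 10.44, 10.49 and 10.36 in controls and 9.97 and 9.77 in eEF1A cells, with no overlap (difference -0.55 ± 0.07 (SE), adjusted p = 0.000516 from limma), and DHR2 was at -0.42. The methyltransferase EMG1, which acts on a modified uridine of 18S rRNA, was at -0.25. ECM16, the DEAH helicase that releases U3, gave 10.66, 10.70, 10.77 and 10.68 in the controls and 10.68 and 10.54 in eEF1A cells. On eEF1A replicate 2 it lay inside the control range, and its difference of -0.09 ± 0.06 (SE) did not pass (95% confidence interval -0.23 to 0.05, adjusted p = 0.247 from limma). The helicase ROK1 did not pass (-0.14).

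**Figure D2:**
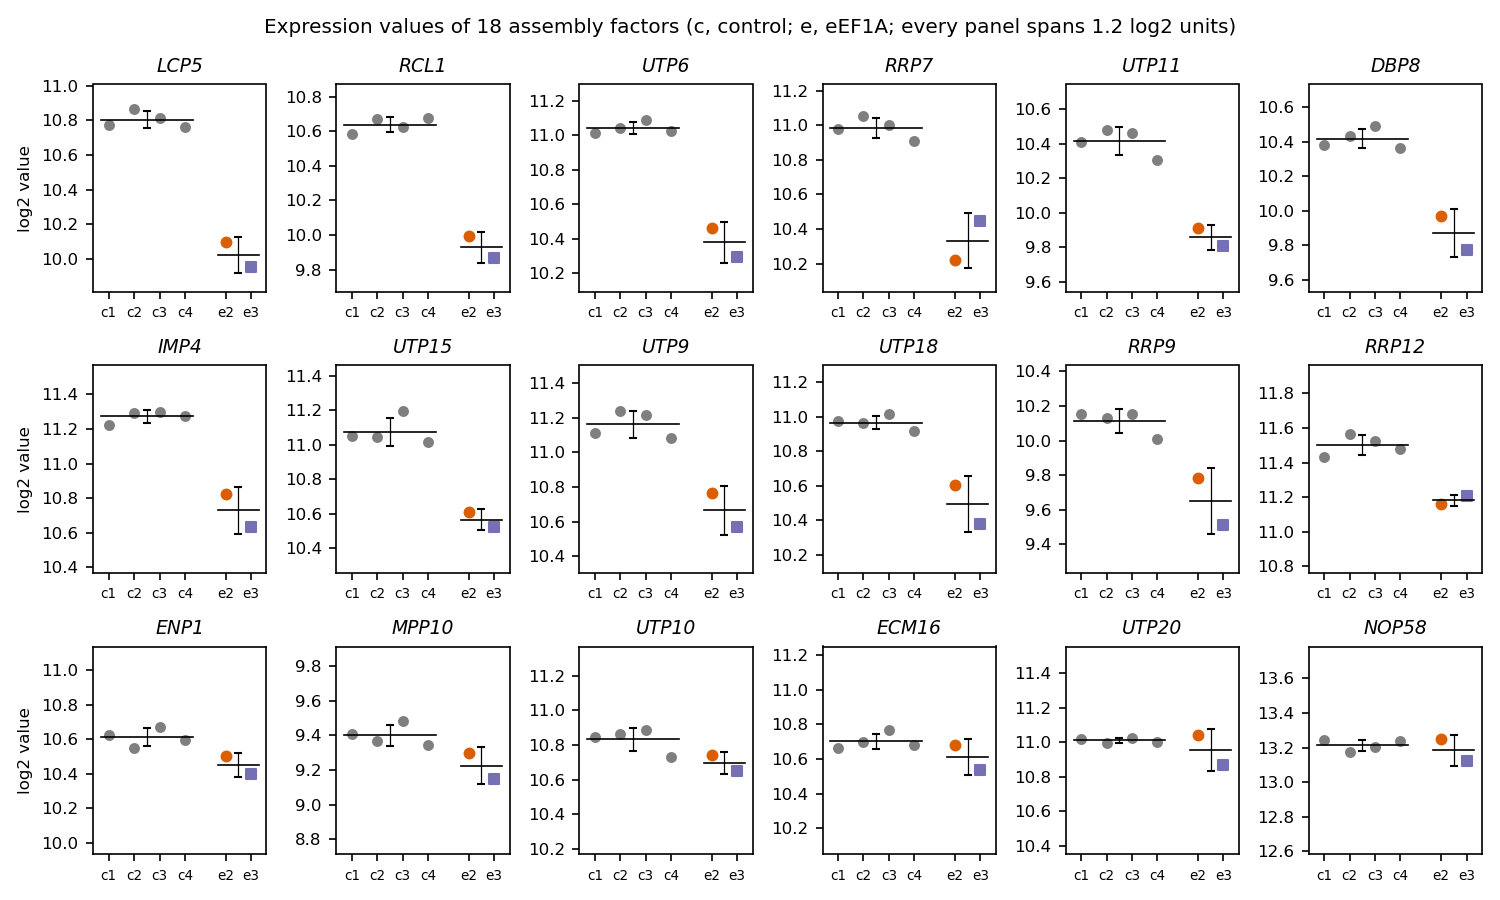
Log2 values of 18 assembly factors on every array (c1 to c4, control replicates 1 to 4; e2 and e3, eEF1A replicates 2 and 3), with the mean of each group as a line and its SD as a bar. Each vertical axis spans 1.2 log2 units around the gene's own values. From LCP5 to MPP10 the groups do not overlap, while UTP10, ECM16, UTP20 and NOP58 have an eEF1A value within or above the control range.

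The remaining 18 processome factors held the largest fall and the only positive difference. Of these, 15 fell (median -0.24), but without eEF1A replicate 3 only 7 did, and ENP2, KRI1, KRR1, MRD1, NOC4, NOP14, UTP14 and UTP30 no longer passed. LCP5 (chr5:414477-415550, plus strand), an essential factor that associates with the U3 particle, read 10.78, 10.87, 10.82 and 10.76 in the controls and 10.09 and 9.95 in eEF1A cells. It was at 58.2% of control, the lowest of the 53 (difference -0.78 ± 0.06 (SE), adjusted p = 5.16e-05 from limma). BFR2, which binds Lcp5, was at -0.47, and ENP2, a further member of that small complex, at -0.26. UTP11 (chr11:255343-256113, minus strand) read 10.41, 10.48, 10.46 and 10.30 in control cells and 9.91 and 9.81 in eEF1A cells, again without overlap (difference -0.56 ± 0.07 (SE), adjusted p = 0.00039 from limma). SOF1, MRD1, SAS10 and UTP23 were between -0.41 and -0.32. Smaller falls, between -0.25 and -0.18, were those of NOC4 and NOP14, which bind each other, of UTP7, UTP30 and KRI1, of UTP14, which activates the helicase of ECM16, and of the KH-domain protein KRR1. UTP20, a very large scaffold, gave 11.017, 10.997, 11.026 and 11.003 in the controls and 11.039 and 10.868 in eEF1A cells. Its eEF1A values straddled the controls, and its difference of -0.06 ± 0.06 (SE) did not pass (95% confidence interval -0.19 to 0.08, adjusted p = 0.464 from limma). RRP5, which works in the assembly of both subunits, is named here because it alone had a positive difference. It read 11.55, 11.60, 11.66 and 11.64 in the controls and 11.75 and 11.61 in eEF1A cells, with replicate 2 above the controls and replicate 3 among them (difference 0.07 ± 0.06 (SE), 95% confidence interval -0.07 to 0.21, adjusted p = 0.401 from limma). NOP6 did not pass (-0.12).

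The late factors had small differences of like size. Of 6, 4 fell (median -0.20, range -0.32 to -0.16). All 6 had both eEF1A values below the controls, as did 21.5% of all genes. The median was -0.12 on eEF1A replicate 2 and -0.29 on replicate 3. Without eEF1A replicate 3, or without control replicate 1, 3 or 4, only RRP12 fell, and without control replicate 2 it was 2 of 6. All 6 fell without eEF1A replicate 2 or after median centring. RRP12, which helps to export both subunits, read 11.43, 11.56, 11.52 and 11.48 in the controls and 11.16 and 11.21 in eEF1A cells. The eEF1A replicates lay close together, with replicate 2 the lower (difference -0.32 ± 0.06 (SE), adjusted p = 0.00267 from limma). TSR1, a GTPase-like factor, NOB1, the nuclease that makes the 3′ end of 18S rRNA, and DIM1, its dimethylase, were at -0.22, -0.21 and -0.18. ENP1 gave 10.63, 10.55, 10.67 and 10.60 in control cells and 10.50 and 10.40 in eEF1A cells. These values did not overlap either, yet its difference of -0.16 ± 0.06 (SE) lay just outside the threshold (adjusted p = 0.0511 from limma), as did that of its partner LTV1 (-0.20, adjusted p = 0.0593 from limma).

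Read one by one, both eEF1A arrays showed the falls, eEF1A replicate 3 more strongly. The median deviation of the 53 from the control mean was -0.21 on eEF1A replicate 2 (86.5% of control) and -0.35 on replicate 3 (78.7%). Set against the mean of the other 3, the controls had medians between -0.03 and 0.06. Both eEF1A values were below all 4 controls in 45 members (21.5% of all genes) and above them in 0 (35.8% of all genes). On eEF1A replicate 2 taken alone, 45 members were below all controls (23.2% of all genes), and the others were NOP1, UTP8, UTP10, ROK1, ECM16, NOP58, UTP20 and RRP5, of which the last 3 were above all controls. On eEF1A replicate 3 alone it was 52 (40.1% of all genes), all but RRP5. Members were lower on replicate 3 than on replicate 2 in 49 of 53 cases, the others being RRP7, RRP12, NOP6 and UTP23, but so were 82.2% of all genes. The median gap between the eEF1A replicates was -0.16 over the members and -0.11 over all genes.

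**Figure D3:**
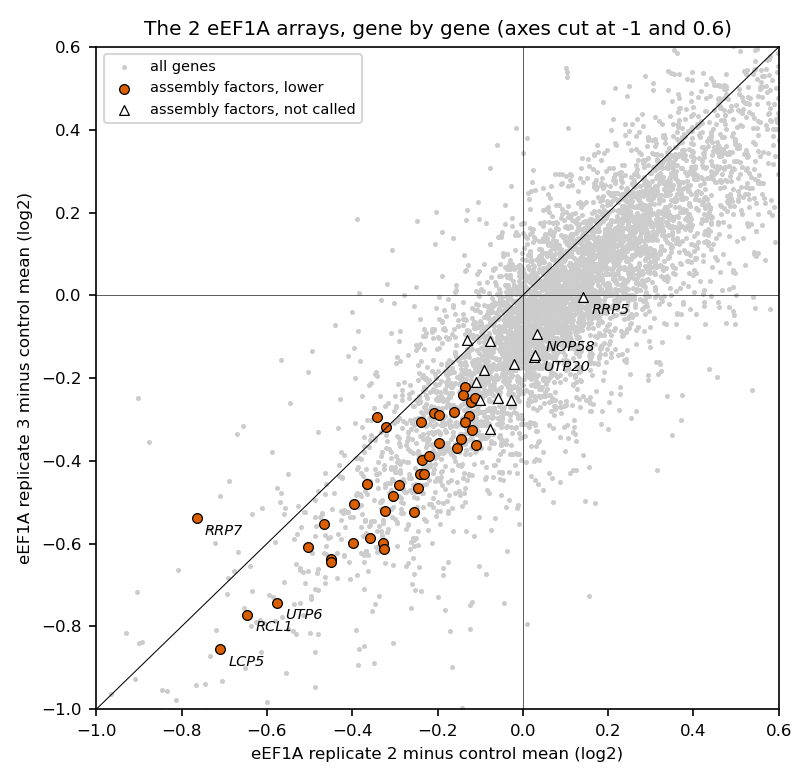
Deviation of each gene from the mean of the 4 controls on eEF1A replicate 2 (horizontal axis) and replicate 3 (vertical axis), in log2 units. Orange circles are the 40 assembly factors that fell, open triangles the 13 not called, grey points all 5725 genes within the axes, and the diagonal marks equal values. Most of the 53 lie below the diagonal in the lower left quadrant, RRP7, RRP12, NOP6 and UTP23 lie above the diagonal, and NOP1, NOP58, UTP20 and RRP5 are right of 0.

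With only eEF1A replicate 2 against the controls, 27 members fell (10.9% of all genes fell), and with only replicate 3, 44 (21.6% of all genes). In these fits the lone eEF1A array is assumed to vary like the controls. Both fits share the 4 controls. The scaling between arrays also bore on the counts. When every array was centred on its median S. cerevisiae value, 50 members fell (25.3% of all genes) and the median was -0.33. The calls over all genes then changed from 885 lower and 1576 higher (36.0% of them lower) to 1451 and 1377 (51.3% lower), and the median over all genes from 0.04 to -0.02. In both scalings 52 of the 53 had a negative difference.

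The differences were also set against the level, length and place of each gene. The Spearman correlation of the difference with the control level was 0.08 across the 53 members and -0.23 across all genes, as a description over genes that share the same arrays. With the coding length of the target it was 0.27 over the members and 0.02 over the 5465 genes with 1 alignment. It was 0.27 over the 58 large subunit factors and -0.08 over 35 further small subunit factors, the lists described next. Of the members with the shortest coding lengths (17 genes of 552 to 1392 bases), 14 fell and the median was -0.32. The middle 18, of 1452 to 2142 bases, had a median of -0.25 and 13 fell. The 18 longest, of 2208 to 7482 bases, had a median of -0.28 and 13 fell. Of all genes in these length ranges, 18.7%, 14.5% and 13.2% fell, with medians of 0.04, 0.06 and 0.05. The members lie on 13 of the 16 chromosomes, at most 9 on 1 of them, and those that fell on 12.

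Other genes of ribosome assembly were set beside them. A list of 35 further small subunit factors had 20 that fell and 0 that rose (median -0.20; 24 lower and 0 higher at an unadjusted p under 0.05). The 3 largest falls there were those of RRP36, FCF2 and the helicase FAL1. RRP36, a processome factor, read 9.85, 9.79, 9.87 and 9.78 in the controls and 9.12 and 8.79 in eEF1A cells (difference -0.86 ± 0.09 (SE), adjusted p = 0.000185 from limma), and FCF2 and FAL1 were at -0.74 and -0.49. Of 58 large subunit factors 45 fell and 0 rose (48 lower and 0 higher at an unadjusted p under 0.05), and their median, -0.28, was close to that of the 53. They were led by RSA4 (-0.67), REI1 (-0.67) and SSF1 (-0.63). Of 15 genes of RNA polymerase I and its factors 8 fell and 0 rose (median -0.16; 9 lower and 0 higher at an unadjusted p under 0.05), and 5 fell without eEF1A replicate 3 or without control replicate 1, 3 or 4. RRN3, the factor that makes the polymerase competent to start, read 9.72, 9.74, 9.68 and 9.67 in controls and 8.98 and 8.89 in eEF1A cells (difference -0.76 ± 0.05 (SE), adjusted p = 2.73e-05 from limma). The core factor subunits RRN11 and RRN7 were at -0.84 and -0.35.

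**Figure D4:**
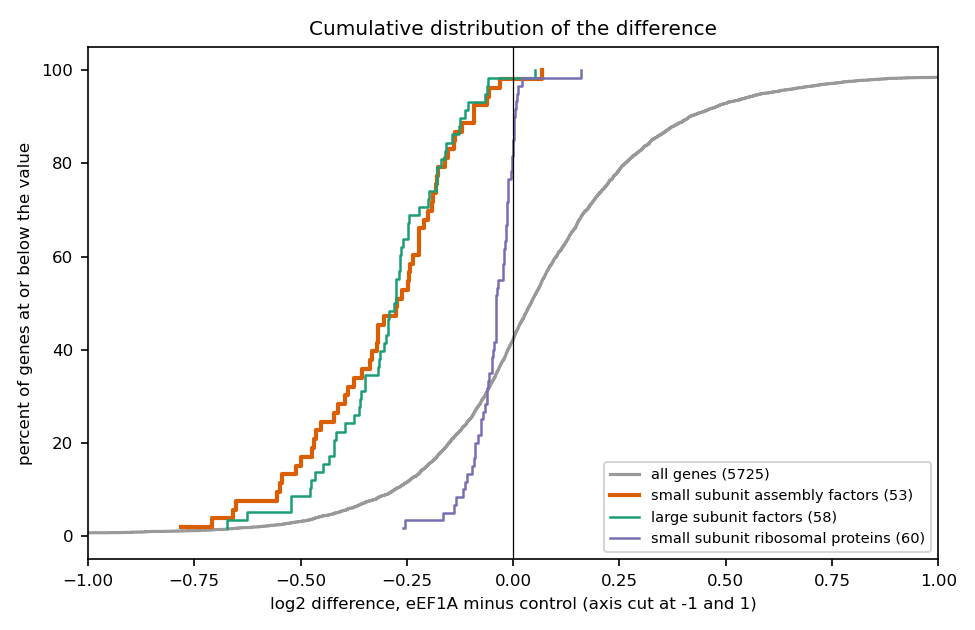
Cumulative share of genes (vertical axis, percent) at or below a given log2 difference, eEF1A minus control (horizontal axis), for the 53 small subunit assembly factors, 58 large subunit factors, 60 small subunit ribosomal protein genes and all 5725 genes. The curves of both groups of assembly factors run together to the left, with medians of -0.27 and -0.28, and that of the ribosomal proteins rises steeply just below 0 (median -0.04).

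The genes of the proteins of the finished small subunit were read too. Of 60 RPS genes, a list made by name after the values had been seen, 3 fell and 1 rose. Of all genes 15.5% fell (25.3% after median centring) and 27.5% rose. The difference was negative in 50 RPS genes, and their median was -0.04. The RPS counts moved with the scaling and the arrays. After median centring 12 fell and 0 rose (median -0.10). Without control replicate 1 or control replicate 2, 0 fell, and 1 fell without control replicate 4. The median was -0.07 without eEF1A replicate 2 and 0.00 without eEF1A replicate 3. On eEF1A replicate 2 their median was 0.00, with 30 of 60 below the control mean, and on replicate 3 it was -0.07, with 57 below. Many RPS genes are near-identical pairs, so that a probe set may read both copies. The called RPS genes read 11.82 to 13.31 in the controls. The part of an array's weaker response to high signals in the small RPS differences was not tested. Of 10 regulators of ribosome genes 3 fell and 3 rose, beside 15.5% and 27.5% of all genes. After quantile normalisation again 3 fell and 1 rose. With only the arrays numbered 2 and 3, 1 fell and 0 rose. TOD6, a repressor of the assembly factor genes, read 10.60, 10.52, 10.62 and 10.50 in the controls and 10.09 and 10.03 in eEF1A cells (difference -0.50 ± 0.06 (SE), adjusted p = 0.000333 from limma). Its paralogue DOT6 was higher (0.24), as were STB3, which binds a promoter element of these genes (0.23), and CRF1, a corepressor of ribosomal protein genes (0.22). RAP1 and IFH1, which bind at ribosomal protein genes, were lower (-0.33 and -0.28).

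**Figure D5:**
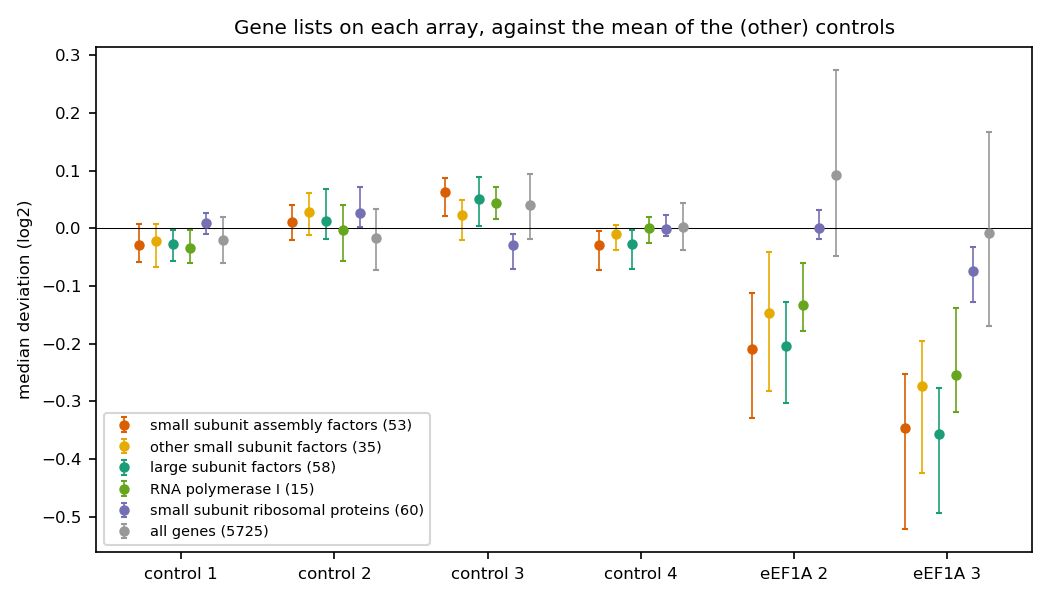
Median over the genes of a list of the deviation of each array from the mean of the controls (for a control array, of the other 3), in log2 units, with bars from the first to the third quartile of the genes. On eEF1A replicates 2 and 3 the small subunit assembly factors lie at -0.21 and -0.35, the ribosomal protein genes at 0.00 and -0.07, and all genes at 0.09 and -0.01.

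The chip also has probe sets for rRNA, the product of the pathway, although most rRNA is in ribosomes made earlier. The mean of 8 probe sets for 18S rRNA was 12.63, 13.11, 13.18 and 12.61 on control replicates 1 to 4, and 12.29 and 13.19 on eEF1A replicates 2 and 3. The groups overlapped, with the values of control replicates 1 and 4 and eEF1A replicate 2 apart from those of the other 3 arrays. The 8 probe sets for 25S rRNA gave 13.30, 13.48, 13.50 and 13.38 in the controls and 13.22 and 13.52 in eEF1A cells. The 1 probe set for 5.8S rRNA gave 12.50, 12.75, 12.70 and 12.61 in the controls and 12.08 and 12.53 in eEF1A cells. For each of these rRNAs eEF1A replicate 2 read lower than replicate 3, while most assembly factors were lower on replicate 3, as were 82.2% of all genes. How closely these probe sets follow the amount of rRNA was not tested.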

How the data were processed

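The authors normalised the arrays by robust multi-array averaging (RMA, named in their processing notes without a version) in affylmGUI. The log2 values they deposited cover 10928 probe sets, 5810 of them for S. cerevisiae. Their deposited tables of fold changes, B-statistics and p-values were not used. Columns of other samples numbered 0. RMA gives all arrays the same distribution of probe signals, over the probes of both yeasts, before they are combined into a value for each probe set. A control and an eEF1A group were taken from the labels. The deposited log2 values were fitted with limma 3.58.1 (R 4.3.3), with the group as the only term, with empirical Bayes moderation (prior proportion 0.01), and p-values were adjusted over 5725 genes. Where 32 genes had several probe sets, the one with the highest mean was used. Symbols were updated through RefSeq locus tags, and 71 probe sets that name several genes were kept. The fit was tested on simulated data. Coordinates are those of the chip's annotation (October 2003), with the first base counted as 1. No depth exists for arrays, so their number limits the precision, and p-values measure the spread between these 6 arrays.

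The 53 members, their roles and the comparison lists were chosen with earlier results of these data known, so no test over a list was made. Values on every array are given for the 10 called members with the largest difference, and in each role for the called member with the largest fall and the uncalled one with the smallest difference. Up to 3 called genes are named from each comparison list, and all 6 called regulators, 3 of them beyond this rule. The alternatives were the B-statistic threshold, median centring, quantile normalisation again, a filter on dim probe sets, limma-trend, robust moderation, all probe sets in the moderation, averaging over the probe sets of each gene, leaving out probe sets with an ambiguous match, a replicate block, only the arrays numbered 2 and 3, and each array left out. Promoter and protein sequences were not used here.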

Additional observations from a re-analysis of the deposited data

Results flagged for a closer look

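Among the 53 assembly factors, the 4 control values of 2 genes held 1 array far from the other 3, control replicate 3 in both. NOP6 read 11.59 there and 11.48 to 11.49 on the other controls, and KRI1 read 10.82 there and 10.76 to 10.77 on the other controls. Chance alone is expected to mark about 1 in 20 such groups. Control replicate 3 was the highest control for 33 of the 53. All genes also lay high on that array, with a median deviation of 0.04 from the mean of the other controls and 1834 of 5725 genes below it.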

How the results depend on the processing

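No alternative turned the direction of a called member, and 0 members rose in any. The number that fell was 40, and it was 37 to 50 under the other scalings, filters and variance models. It was 9 at a B-statistic above 1.5, 25 with only the arrays numbered 2 and 3, and 33 to 34 without 1 control. Without eEF1A replicate 3 it was 27 and without eEF1A replicate 2 it was 44. With the replicate number as a replicate block 21 fell (7.63% of all genes). The deviations of same-numbered arrays from their group means correlated at -0.04 and -0.01. The deviations of the 2 eEF1A arrays are mirror images, so this cannot tell whether same-numbered arrays belong together. The median of -0.27 was -0.33 after median centring, between -0.29 and -0.26 without 1 control, -0.35 without eEF1A replicate 2 and -0.21 without eEF1A replicate 3. In each of the 16 refitted alternatives 20 members fell, LCP5, RCL1, UTP6 and RRP7 among them. NOP14, TSR1 and UTP30 were lost most often, and the cause was not tested. With 2 eEF1A arrays the smallest difference that passed was -0.18, and uncalled members may differ too.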
